A study of Mus musculus with 16 samples.

Results

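The aminoacyl-tRNA synthetases were followed in mouse CD8 T cells at rest and after stimulation. The members were all non-control probes whose gene name in the array files is that of a synthetase (a 1-letter amino acid code followed by ars, with or without a 1 or 2, and the names Eprs, Farsa, Farsb, Farsla, Farslb, Aarsl and Iars2). This gave 64 of 41174 non-control probes under 32 gene names. The probe named Hars2 carries the accession of Dtd1, a D-aminoacyl-tRNA deacylase, and was left out of the counts, which leaves 31 synthetase genes. The probe named Vars2 carries the accession of Vars, the cytosolic valyl enzyme, and was counted as such. Of the genes, 20 encode cytosolic enzymes and 11 mitochondrial ones, and the chosen probe of each of the 31 was well above background on all 16 arrays.

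The cells came from 7-week-old female C57BL/6N mice with no other genotype stated, and were sorted as positive for CD8 and Thy1.2. Cells with much surface CD44 are called memory (memory phenotype) and cells with little of it naive. Both were cultured for 4 h. Stimulated cells received 10 ng/mL of PMA together with 500 ng/mL of ionomycin, and resting cells received medium only. The groups were therefore memory stimulated, memory resting, naive stimulated and naive resting, with 4 arrays each. PMA switches on protein kinase C and ionomycin raises calcium, so this stimulus acts downstream of the T cell receptor. The design text describes 4 separate rounds of sorting and culture and does not give the number of mice behind each.

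A synthetase joins one amino acid to its transfer RNAs at the cost of ATP, and every codon read by a ribosome depends on that reaction. The enzymes fall into class I and class II, whose catalytic domains have unrelated folds. Cytosol and mitochondria mostly use separate enzymes, all encoded in the nucleus, although the Gars and Kars genes each serve both places. In the cytosol, several synthetases sit in a large complex held together by the proteins Aimp1, Aimp2 and Eef1e1. T cells that are activated enlarge and raise protein synthesis before they divide.

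Levels are log2 signal relative to the 75th percentile of the array, so 0 stands for that percentile and 1 unit for a doubling. The percentile lay between 484.6 and 669.8 intensity units, and between 59.3% and 66.5% of spots were well above background. Replicates of a group correlated at 0.978 to 0.995 across genes, which are not independent replicates. All 6 CD8 T cell markers examined (Cd8a, Cd8b1, Cd3e, Cd3g, Thy1, Lck) were well above background in every group. On stimulation Cd3g fell 2.38-fold in memory and 5.04-fold in naive cells, and Cd8a 2.52-fold and 2.93-fold. Cd3e fell 1.71-fold in memory and 2.28-fold in naive cells, and Lck 2.14-fold and 1.58-fold. Cd8b1 fell 1.31-fold in naive cells (adjusted p = 0.0103) and did not pass the test in memory cells (0.108). Thy1 rose 1.81-fold in memory cells and did not pass in naive cells (0.335). Cd44, the gene of the sorting marker, was at 10.4 to 12.2 times the 75th percentile in memory resting and 0.600 to 0.737 times in naive resting cells. Of 7 monocyte, macrophage or neutrophil markers, 6 were well above background in each stimulated group and 7 in each resting group. Their summed level, as multiples of the 75th percentile, was 2.75 to 4.33 on memory stimulated and 12.9 to 21.4 on memory resting arrays. In naive cells it was 1.54 to 3.08 on stimulated and 8.04 to 13.8 on resting arrays. Csf1r, Lyz2, Ngp, S100a8 and S100a9 of this list fell in both kinds of cell, while Itgam rose 4.10-fold in naive cells (adjusted p = 0.0228) and Cd14 did not pass the test in either (log2 change -0.39 in memory, 0.54 in naive cells). The sum over 5 B cell markers was 0.190 to 0.261 in memory stimulated and 1.34 to 1.60 in memory resting arrays, and 0.217 to 0.406 in naive stimulated and 1.63 to 2.20 in naive resting arrays. Of those 5, 3 were well above background in memory stimulated and 5 in memory resting cells, and 4 in naive stimulated and 3 in naive resting cells. The sum over 3 NK cell markers was 1.09 to 2.24 in memory stimulated and 1.74 to 2.68 in memory resting cells. In naive cells it was 0.0681 to 0.15 when stimulated and 0.101 to 0.261 at rest. All 3 were well above background in memory stimulated cells and 2 in each other group. Klra8 stood highest in memory cells (mean 0.56 stimulated, 0.62 resting). Its log2 change did not pass the test (-0.06 in memory, 0.03 in naive cells). Klrb1c fell 9.85-fold in memory and 3.07-fold in naive cells. Ncr1 did not pass in either (0.30 in memory, -0.39 in naive cells). The part of these other cells in the comparisons below was not tested. The 4 arrays of a group shared 1 slide, and no slide held arrays of another group. Slide and group therefore cannot be told apart anywhere below. On every slide the replicate number was also the position of the array, so replicate number and position cannot be told apart either.

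Promoter sequences are shown here as a description, and whether they bear on any change in transcript level was not tested. RefSeq promoter windows on GRCm38.p6, from 250 bases before the start to 50 after it, were found for 22 of the 31 genes, 13 cytosolic and 9 mitochondrial. Both strands were searched for TGATGNAA, the form of element bound by Atf4 with a C/EBP partner in amino acid starvation, and for CACGTG, the E-box bound by Myc and other factors of its class. The motifs do not overlap in these windows. TGATGNAA stood in 5 of 13 cytosolic windows (Aars, Tars, Iars, Gars and Yars), which is 38.5%, and in 0 of 9 mitochondrial ones, against 4.51% of 27025 genes in the table. CACGTG stood in 4 of 13 cytosolic windows (Aars, Tars, Iars and Farsb), which is 30.8%, and in 0 of 9 mitochondrial ones, against 8.09% of all genes in the table. With TGATGNAA in 4.51% of genes, its absence from 9 windows says little. The 5 genes with TGATGNAA rose on stimulation in both kinds of cell. So did Eprs, Kars, Mars2 and Yars2, whose windows held neither motif. A match is a run of letters and not a measured binding site. In the stretches below, written 5′ to 3′ on the gene's strand, capitals mark the motif letters. TTGCATCA and TTTCATCA are TGATGNAA read on the opposite strand.
Aars, chr8:111033682-111033871, plus strand: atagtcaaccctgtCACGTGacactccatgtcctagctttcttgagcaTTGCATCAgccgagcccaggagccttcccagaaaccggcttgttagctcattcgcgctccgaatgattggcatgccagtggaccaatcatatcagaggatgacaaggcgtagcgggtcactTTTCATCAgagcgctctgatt
Tars, chr15:11399629-11399718, minus strand: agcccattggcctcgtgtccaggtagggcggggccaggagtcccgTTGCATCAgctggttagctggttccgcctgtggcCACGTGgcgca
Iars, chr13:49682040-49682159, plus strand: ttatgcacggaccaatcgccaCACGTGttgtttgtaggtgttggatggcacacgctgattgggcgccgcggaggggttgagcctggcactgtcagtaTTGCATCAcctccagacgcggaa
Gars, chr6:55037941-55038021, plus strand: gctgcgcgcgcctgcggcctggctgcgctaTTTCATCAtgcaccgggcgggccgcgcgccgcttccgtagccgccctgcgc
Yars, chr4:129189863-129189932, plus strand: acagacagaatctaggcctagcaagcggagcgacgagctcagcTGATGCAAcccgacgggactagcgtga
Counted from the start base as 0, the TGATGNAA stretches began at -112 and 9 in Aars, -15 in Tars, 7 in Iars, -30 in Gars and 3 in Yars. Aars, Tars and Iars held both motifs.

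The first comparison asks what stimulation does to the synthetases in each kind of cell. Transcripts of nearly all cytosolic synthetases were more abundant after stimulation in both, up to 8.62-fold for Yars in memory cells, whereas the mitochondrial enzymes went in both directions. In memory cells 24 of 31 genes rose and 2 fell at an adjusted p below 0.05 (limma, Benjamini-Hochberg over all probes tested), where of the 18404 genes tested 31.3% rose and 39.1% fell (70.4% called). In naive cells the counts were 23 higher and 6 lower, where 38.2% of all genes were higher and 30.9% lower (69.1% called). The median log2 change of the 31 was 1.81 in memory cells, with a median of -0.16 over all genes, and 1.52 in naive cells, with 0.15 over all genes. Values are amounts per total RNA of the sample, so fewer cells of a type and less RNA per cell cannot be told apart. The ordering of the genes was close to the same in both: across the 31 genes the memory and naive changes, which share no array, correlated at r = 0.983 (rho = 0.963), beside r = 0.822 over all genes.

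**Figure D1:**
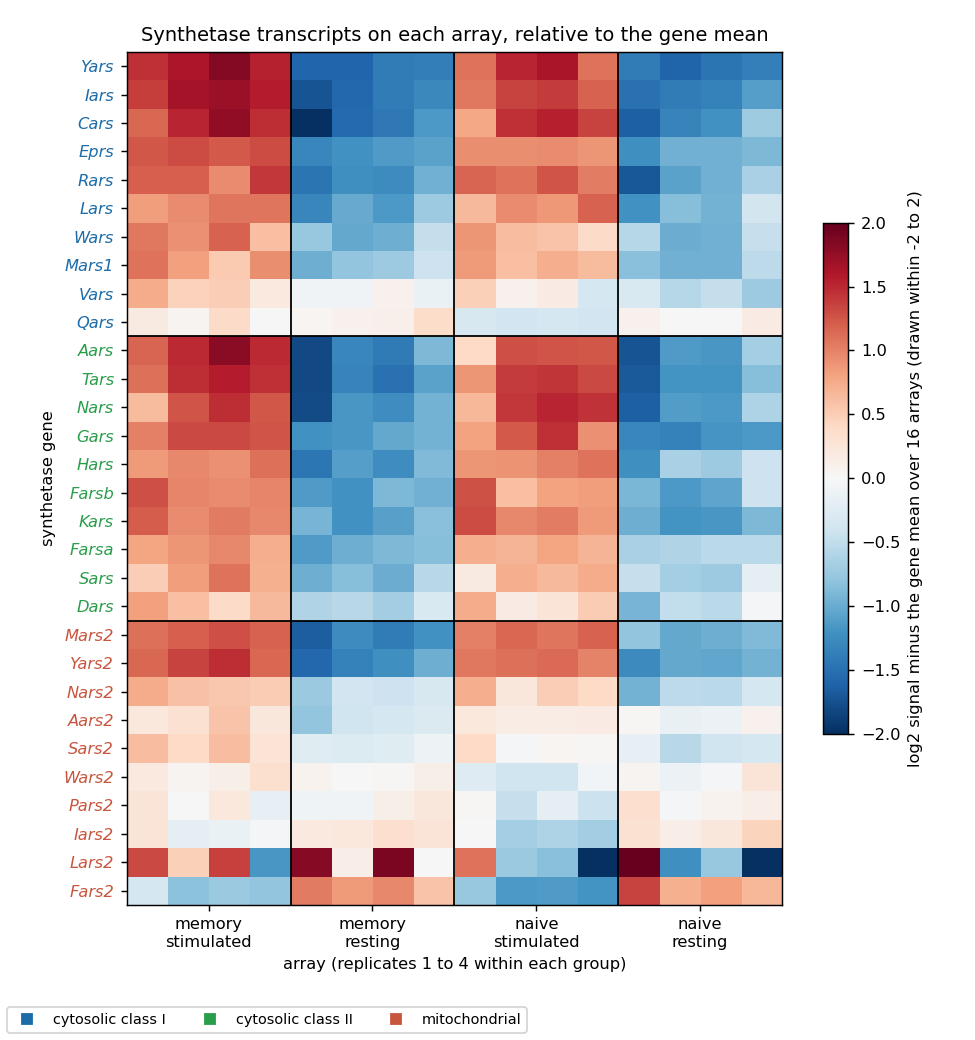
Level of 30 synthetase genes on the 16 arrays, as log2 signal minus the gene's mean over all arrays, with genes in rows grouped by role and arrays in columns by group. The cytosolic rows are high on stimulated arrays of both kinds except Qars, while Fars2 is low there and Lars2 varies within every group.

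Of 10 class I cytosolic genes, 9 rose in memory cells and 9 in naive cells, with medians of 2.22 and 1.84. Eprs, which charges both glutamate and proline and carries domains of both classes, is counted here.

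Yars, the tyrosyl enzyme (probe at mm7 chr4:128663450-128663509), had the largest rise of all members. Its levels were 4.24, 4.39, 4.61 and 4.31 on memory stimulated and 1.18, 1.18, 1.37 and 1.39 on memory resting arrays. In naive cells they were 3.86, 4.29, 4.41 and 3.85 when stimulated and 1.37, 1.17, 1.31 and 1.40 at rest. Stimulated and resting arrays did not overlap, and the rise was 8.62-fold in memory cells (log2 3.11 ± 0.14 SE, adjusted p = 3.3e-11) and 6.91-fold in naive cells (2.79 ± 0.14, adjusted p = 1.05e-10).

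Iars, the isoleucyl enzyme (chr13:49217836-49217895), read 5.51, 5.78, 5.85 and 5.69 on memory stimulated and 2.39, 2.55, 2.72 and 2.84 on memory resting arrays. Naive cells had 5.18, 5.48, 5.53 and 5.30 when stimulated and 2.62, 2.72, 2.76 and 3.02 at rest. The groups lay far apart, at 8.49-fold in memory and 6.02-fold in naive cells, and both other Iars probes rose as much (log2 changes of 3.0 and 3.31 in memory cells).

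Cars, the cysteinyl enzyme (chr7:139986427-139986486), gave 4.29, 4.66, 4.91 and 4.61 on memory stimulated against 1.09, 1.59, 1.71 and 1.99 on memory resting arrays, and 3.91, 4.60, 4.70 and 4.49 on naive stimulated against 1.51, 1.80, 1.93 and 2.43 on naive resting arrays. This is 8.13-fold in memory and 5.68-fold in naive cells, with more spread between replicates than for Yars.

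Qars, the glutaminyl enzyme (chr9:108227775-108228398), was the one cytosolic gene that did not rise. It had 4.04, 3.93, 4.25 and 3.88 on memory stimulated and 3.91, 3.96, 3.97 and 4.23 on memory resting arrays, so these overlapped (log2 change 0.01 ± 0.11, adjusted p = 0.947). In naive cells it fell to 3.55, 3.49, 3.51 and 3.48 when stimulated, against 3.95, 3.85, 3.87 and 4.04 at rest, a log2 change of -0.42 ± 0.11 (adjusted p = 0.0025). The memory value depends on how arrays are scaled, and came out at 0.32 (adjusted p = 0.0205) with scaling to the median and at -0.59 (adjusted p = 2.08e-05) with quantile scaling. Of the other Qars probes, one fell in naive cells by 0.65 and the other, a dim probe with levels of -3.38 to -2.08, did not pass the test in either response (0.30 in memory, 0.32 in naive cells).

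The remaining class I genes lay between these. Eprs rose 5.44-fold in memory and 3.82-fold in naive cells and Rars, the arginyl enzyme, 5.31-fold and 4.68-fold. Lars (leucyl) rose 4.09-fold in memory and 3.36-fold in naive cells, Wars (tryptophanyl) 3.35-fold and 2.57-fold, and Mars1 (methionyl) 2.95-fold and 2.87-fold. Vars (valyl) moved least among those that rose, with log2 changes of 0.52 in memory (adjusted p = 0.00996) and 0.61 in naive cells (adjusted p = 0.00332). The memory call for Vars was lost under quantile scaling (0.16, adjusted p = 0.404), among other scalings.

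All 10 class II cytosolic genes rose in both kinds of cell, with medians of 2.11 in memory and 1.93 in naive cells. Aars, the alanyl enzyme (chr8:109655652-109655710), whose promoter above holds both motifs, had 5.16, 5.49, 5.80 and 5.49 on memory stimulated and 2.19, 2.69, 2.58 and 3.09 on memory resting arrays, 7.18-fold higher. Naive cells showed 4.40, 5.28, 5.25 and 5.23 when stimulated and 2.27, 2.86, 2.83 and 3.31 at rest, 4.67-fold higher (log2 2.22 ± 0.25 SE, adjusted p = 1.15e-06). The first naive stimulated array was the lowest of its group and still above every resting array.

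Tars, the threonyl enzyme (chr15:11441917-11442002), was at 6.65, 7.01, 7.10 and 7.00 on memory stimulated and 3.74, 4.21, 4.05 and 4.46 on memory resting arrays (7.09-fold). The naive arrays were at 6.41, 6.93, 6.96 and 6.86 when stimulated and 3.86, 4.34, 4.34 and 4.69 at rest (5.61-fold). All stimulated arrays exceeded all resting ones.

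Nars, the asparaginyl enzyme, read 3.28, 3.91, 4.12 and 3.90 on memory stimulated and 0.86, 1.49, 1.41 and 1.70 on memory resting arrays (5.41-fold). It read 3.32, 4.07, 4.18 and 4.10 on naive stimulated and 1.01, 1.54, 1.51 and 2.04 on naive resting arrays (5.24-fold). Replicate 1 was the lowest in each of the 4 groups, and the gap between stimulated and resting arrays was larger than this spread.

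Dars, the aspartyl enzyme, had the smallest rise of the class. Its representative probe gave 3.88, 3.66, 3.44 and 3.72 on memory stimulated and 2.46, 2.51, 2.37 and 2.75 on memory resting arrays (2.22-fold, adjusted p = 3.29e-05). On naive arrays it gave 3.81, 3.23, 3.31 and 3.57 when stimulated and 2.13, 2.57, 2.53 and 3.02 at rest (1.89-fold, adjusted p = 0.000292).

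Of the other class II genes, Gars (glycyl) rose 4.97-fold in memory and 5.10-fold in naive cells and Kars (lysyl) 4.15-fold and 4.26-fold, while Hars (histidyl) rose 4.36-fold and 3.30-fold. The subunits of the phenylalanyl enzyme moved together, Farsb 4.28-fold in memory and 3.39-fold in naive cells and Farsa 3.5-fold and 2.47-fold. Sars (seryl) rose 3.08-fold in memory and 2.13-fold in naive cells.

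**Figure D2:**
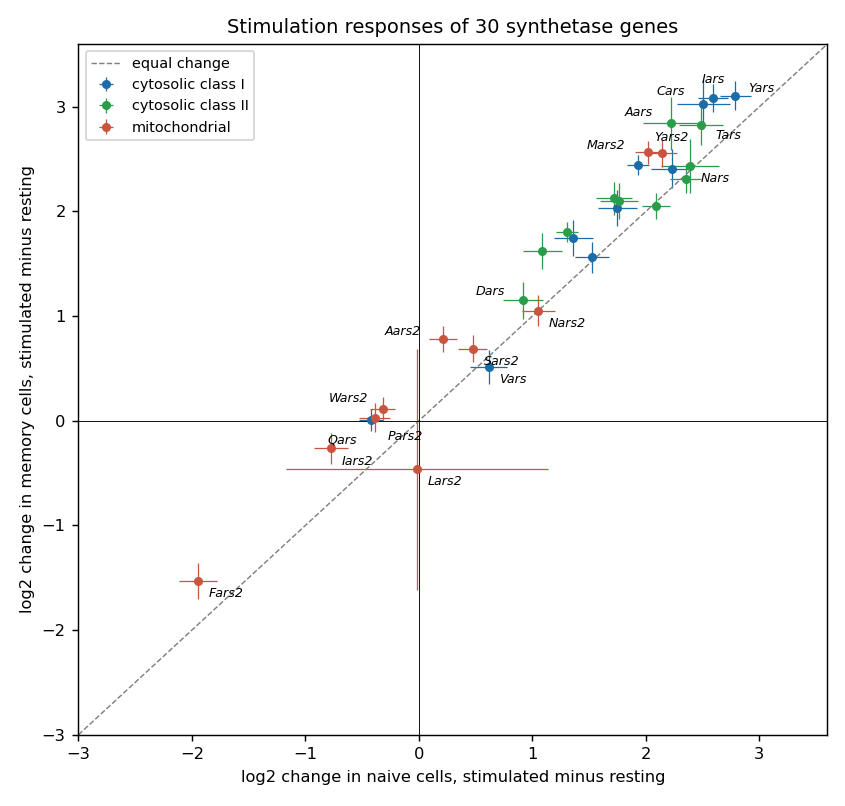
Log2 change on stimulation of 30 synthetase genes in memory cells (vertical axis) and naive cells (horizontal axis), with SE bars, coloured by role; the dashed line marks equal changes. Among cytosolic genes other than Qars and Vars the smallest changes are those of Dars (1.15 in memory, 0.92 in naive cells), Fars2 lies lowest on both axes, and Lars2 has an SE of 1.2.

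The 11 mitochondrial genes split. In memory cells 5 rose and 2 fell, and in naive cells 4 rose and 5 fell, with medians of 0.11 and -0.02. As shares, 45.5% rose and 18.2% fell in memory cells, beside 31.3% and 39.1% of all genes, and 36.4% rose and 45.5% fell in naive cells, beside 38.2% and 30.9% of all genes. The share that rose in naive cells was thus close to that of all genes. Mars2 is the mitochondrial methionyl enzyme (chr1:55486108-55486167). It was near the 75th percentile on all memory stimulated arrays (-0.01 ± 0.08, mean ± SD, n = 4) and at -2.84, -2.45, -2.60 and -2.40 on memory resting arrays. On naive arrays it had -0.18, -0.04, -0.13 and -0.02 when stimulated and -1.98, -2.21, -2.17 and -2.08 at rest. The rise was 5.92-fold in memory (adjusted p = 2.09e-11) and 4.04-fold in naive cells (adjusted p = 2.65e-10), with no overlap.

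Yars2, the mitochondrial tyrosyl enzyme (chr16:15850657-15850716), had 3.62, 3.82, 3.94 and 3.61 on memory stimulated and 0.90, 1.13, 1.24 and 1.5 on memory resting arrays. Naive cells had 3.53, 3.58, 3.61 and 3.47 when stimulated and 1.21, 1.44, 1.44 and 1.53 at rest. It rose 5.88-fold in memory and 4.41-fold in naive cells, and its stimulated arrays did not overlap with its resting ones.

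Fars2, the mitochondrial phenylalanyl enzyme (chr13:35648898-35648957), fell in both kinds of cell. It read -1.87, -2.34, -2.27 and -2.31 on memory stimulated against -0.48, -0.68, -0.56 and -0.95 on memory resting arrays, and -2.28, -2.67, -2.66 and -2.72 on naive stimulated against -0.17, -0.82, -0.71 and -0.85 on naive resting arrays. Stimulated arrays lay below resting ones without overlap, 2.89-fold lower in memory cells (log2 -1.53 ± 0.17 SE, adjusted p = 9.2e-07) and 3.85-fold lower in naive cells (-1.95 ± 0.17, adjusted p = 6.15e-08).

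Nars2 rose 2.07-fold in each kind of cell by its representative probe, while its other probe did not pass the test (log2 0.50, adjusted p = 0.0526 in memory cells, and 0.10, adjusted p = 0.698 in naive cells). Sars2 rose by log2 0.69 in memory and 0.47 in naive cells. Aars2 rose by 0.78 in memory cells and stood at 0.21 (adjusted p = 0.132) in naive cells. Iars2 fell in naive cells by 0.77 and stood at -0.26 (adjusted p = 0.128) in memory cells, where 3 other scalings put it past the threshold at -0.52 to -0.56. Its other probes, both dim, fell in naive cells by 1.39 and 0.37, and in memory cells one fell by 0.86 (adjusted p = 0.0015) and one stood at -0.07 (adjusted p = 0.63).

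The falls of Pars2 and Wars2 in naive cells were small. Pars2, the prolyl enzyme (chr4:106031179-106031238), had -1.05, -1.52, -1.24 and -1.49 on naive stimulated and -0.72, -1.09, -1.0 and -0.93 on naive resting arrays, which overlap (log2 -0.39 ± 0.14, adjusted p = 0.0203). In memory cells it did not pass the test, with -0.81, -1.06, -0.85 and -1.22 when stimulated and -1.15, -1.13, -0.95 and -0.83 at rest (0.03, adjusted p = 0.867). Its naive call was lost without naive stimulated replicate 2 or 4 (adjusted p = 0.0688 and 0.0605) or naive resting replicate 1 (0.0599). Wars2 fell by 0.32 in naive cells (adjusted p = 0.0183), a call lost without naive stimulated replicate 2 (0.0582) or 3 (0.0584) or naive resting replicate 4 (0.0597), and its other tested probes did not pass the test. Without naive stimulated replicate 2 the count of mitochondrial genes that fell in naive cells was therefore 3. In memory cells Wars2 stood at 0.11 (adjusted p = 0.367). There it passed as higher with quantile scaling (0.29, adjusted p = 0.0386), median scaling (0.43, 0.00563) and the authors' table (0.23, 0.0449).

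Lars2, the mitochondrial leucyl enzyme, could not be read for a response, because its replicates differed more than its groups. The probe is shown since 1 probe carries the gene. Its sequence may also match a ribosomal RNA, which was not tested, so the values of this probe may not be those of the Lars2 transcript.
Lars2 probe, mm7 chr9:123178230-123178289: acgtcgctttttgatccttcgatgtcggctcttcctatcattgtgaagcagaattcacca
It had 7.98, 7.14, 8.03 and 5.5 on memory stimulated and 8.48, 6.81, 8.54 and 6.67 on memory resting arrays. On naive arrays it had 7.75, 5.92, 5.84 and 4.22 when stimulated and 9.81, 5.44, 5.90 and 2.65 at rest. Replicate 4 was the lowest in all 4 groups, and the changes were -0.46 in memory and -0.02 in naive cells, each with an SE of 1.2 (adjusted p = 0.731 and 0.99). Its mean SD within groups was 1.65, and 4 of 27306 tested probes had a larger one.

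**Figure D3:**
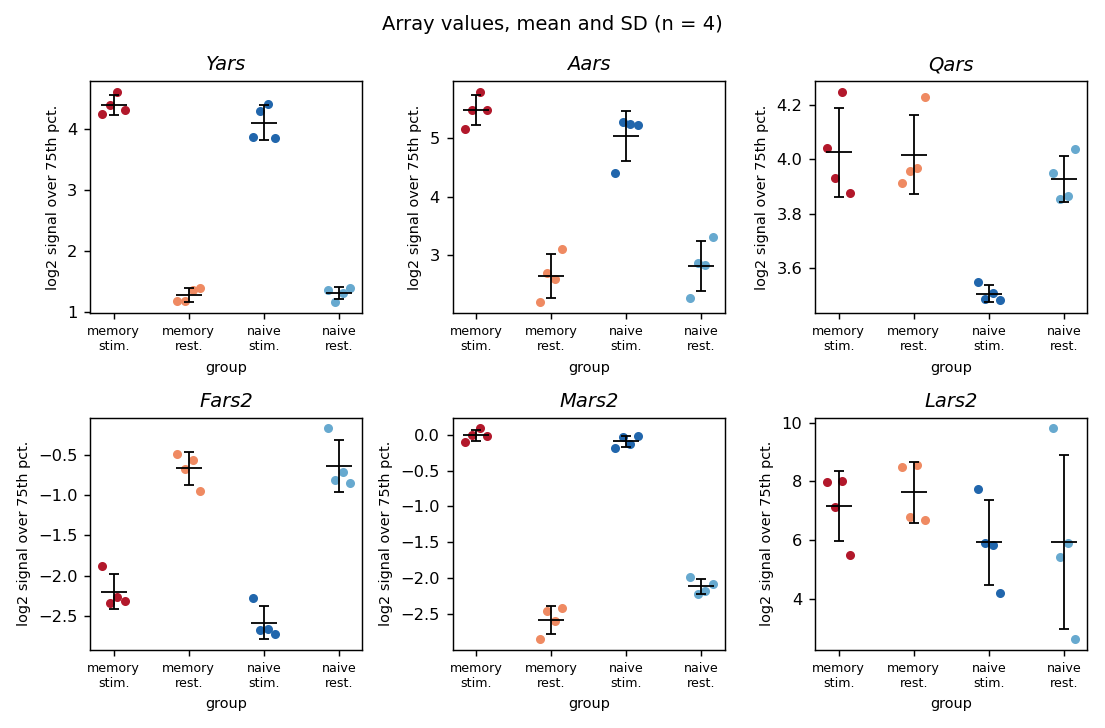
Levels of Yars, Aars, Qars, Fars2, Mars2 and Lars2 on each array, as log2 signal over the array's 75th percentile; points are arrays, and the bar with whiskers is the mean ± SD of 4. Each panel has its own vertical range. Stimulated and resting arrays are separate for Yars, Aars, Fars2 and Mars2, while Lars2 spans 2.65 to 9.81 within the naive resting group.

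Amino acids served by a cytosolic and a mitochondrial enzyme on the array allow both to be set against each other within each array, which removes the scaling. For 10 such amino acids the cytosolic minus the mitochondrial level was compared between 4 stimulated and 4 resting arrays with a two-sided exact permutation test. The 20 comparisons were adjusted together, and the smallest p that the design allows is 0.0286 (adjusted 0.0317). In memory cells the cytosolic transcript gained on the mitochondrial one for 9 amino acids, and in naive cells for 7, each at that smallest p and with no overlap between arrays. The gain was largest in memory cells for isoleucine (Iars over Iars2, 3.35 ± 0.19 SE) and phenylalanine (Farsa over Fars2, 3.34 ± 0.20). In naive cells isoleucine gave 3.36 and phenylalanine 3.25. Among the pairs past the threshold tyrosine gave the smallest gains, 0.55 ± 0.08 in memory and 0.65 ± 0.15 in naive cells.

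Methionine went the other way. Mars1 lost ground to Mars2 by 1.0 ± 0.17 in memory cells (exact p = 0.0286, adjusted 0.0317) and by 0.49 ± 0.13 in naive cells (exact p = 0.0286, adjusted 0.0317). The exceptions in naive cells were serine, with a difference of 0.61 ± 0.26 (exact p = 0.0857, adjusted 0.0902), and leucine, where the Lars2 probe is too variable and, as said above, of unsure target (1.77 ± 1.84, exact p = 0.457). Leucine is among the 9 gains in memory cells, where it rests on that probe. These ratios show unequal change and not that either member stayed the same.

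**Figure D4:**
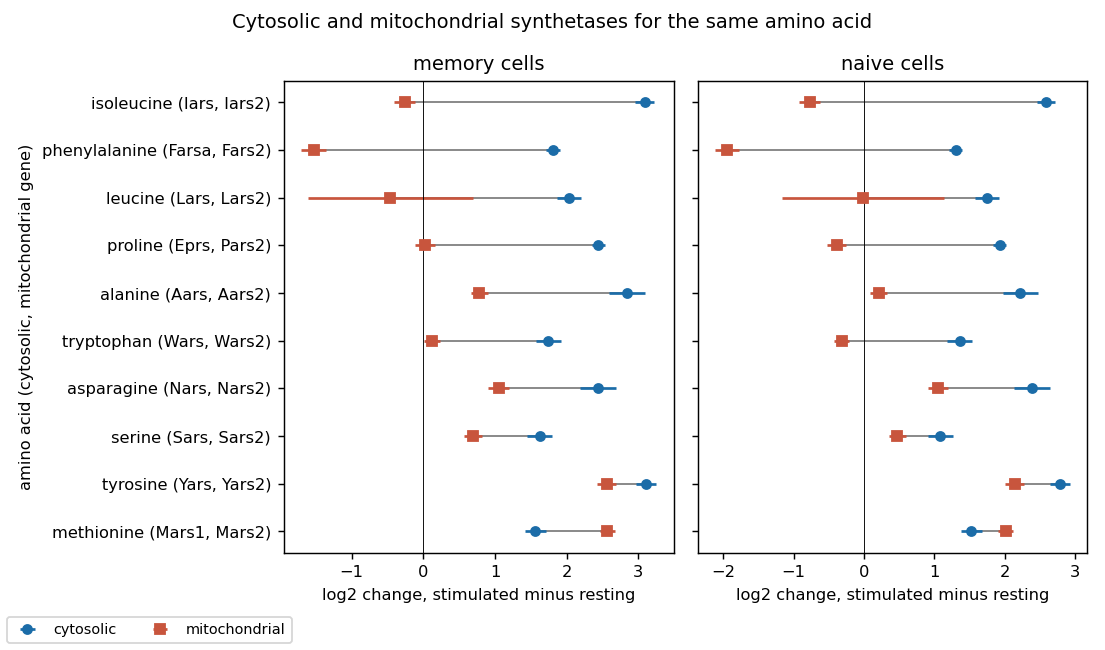
Log2 change on stimulation of the cytosolic (circles) and mitochondrial (squares) synthetase for 10 amino acids, in memory cells (left) and naive cells (right), with SE bars. The circle lies to the right of the square for every amino acid except methionine, and the line between them is longest in memory cells for isoleucine (3.35).

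Memory and naive cells were compared at rest. Few synthetases differed. None of the 31 was higher in memory cells and 3 were lower, where 13.4% of all genes were higher and 7% lower (20.4% called), and the median difference was -0.08. Mars2 was lower in memory cells by 0.46 ± 0.11 (adjusted p = 0.00751), with every memory resting array below every naive resting array. Farsa averaged 1.36 ± 0.13 in memory and 1.74 ± 0.06 in naive resting cells (SD, n = 4), a difference of -0.38 (adjusted p = 0.0104). Aars2 averaged 0.42 ± 0.22 in memory and 0.83 ± 0.11 in naive resting cells, and its call (-0.41, adjusted p = 0.0273) was lost when memory resting replicate 1 (0.0889) was left out, and likewise naive resting replicate 4 (0.0662). Leaving out naive resting replicate 1 raised the number of genes called to 6, adding Hars at -0.57 (adjusted p = 0.00695), Vars at 0.54 (0.0324) and Lars2 at 2.96 (0.0302). With replicate number as a block in the fit, Hars was also lower (-0.41, adjusted p = 0.0132) and Vars higher in memory cells (0.47, adjusted p = 0.0069). The absence of a higher gene depends on the setting, since Vars lay just short of the threshold in the main fit (0.47, adjusted p = 0.0562). It passed as higher with quantile scaling (0.59, adjusted p = 0.0236) and the authors' table (0.60, 0.0118), among other settings.

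After stimulation, 5 of 31 genes were higher in memory than in naive cells and none was lower, where 9.59% of all genes were higher and 13.4% lower (23% called). The median difference was 0.19. Qars averaged 4.02 ± 0.16 in memory and 3.51 ± 0.03 in naive stimulated cells (SD, n = 4), a difference of 0.52 ± 0.11 SE (adjusted p = 0.00288). Wars2 was higher by 0.44 (adjusted p = 0.0104), Eprs by 0.34 (0.018), Iars2 by 0.48 (0.0322) and Sars2 by 0.37 (0.0495). Not every probe of these genes gave a call. The other 3 Eprs probes did not pass (-0.0032, 0.10 and 0.28, adjusted p = 0.993, 0.734 and 0.0577), nor did both other Wars2 probes, while 1 of the other 2 passed for Qars and for Iars2. The count fell to 3 without memory stimulated replicate 1 or 2, or naive stimulated replicate 2, 3 or 4. Iars2 was lost without any of 5 arrays (adjusted p = 0.0541 to 0.105) and Eprs without memory stimulated replicate 2 (0.0506). Sars2 was lost without any of 13 arrays (0.0507 to 0.141). With replicate number as a block in the fit, Aars, Fars2, Iars and Vars were also higher in memory cells (adjusted p = 0.0316, 0.00947, 0.0232 and 0.0212).

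The interaction asks whether memory cells responded more than naive cells. It passed the test for 4 of 31 genes, all with the larger change in memory cells, where 5.21% of all genes had a higher and 13.4% a lower value (18.6% called). Eprs differed by 0.51 ± 0.13 SE (adjusted p = 0.0169), Farsa by 0.50 ± 0.13 (0.018), Mars2 by 0.55 ± 0.15 (0.0233) and Aars2 by 0.57 ± 0.17 (0.0344). For Mars2, Farsa and Aars2 the memory cells started lower at rest, and after stimulation the difference did not pass the test (adjusted p = 0.61, 0.403 and 0.394). Eprs did not differ by the test at rest (-0.17, adjusted p = 0.247) and was higher in memory cells after stimulation by its representative probe. Of the other 3 Eprs probes 1 passed in the interaction (0.44, adjusted p = 0.0466) and 2 did not (0.22 and 0.19, adjusted p = 0.694 and 0.682). Both other Farsa probes did not pass in the interaction (0.02 and 0.15, adjusted p = 0.975 and 0.502) or at rest (-0.31 and -0.14, adjusted p = 0.272 and 0.36). Aars2 lost its interaction call without any of 7 arrays (adjusted p = 0.0561 to 0.0689). With replicate number as a block in the fit, Aars, Fars2, Iars and Wars2 also passed, each above 0 (adjusted p = 0.0404, 0.0407, 0.0245 and 0.0121). With median scaling, which moves the interaction of all genes to a median of 0.34, the count was 16 of 31, with a median of 0.73.

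Probes of one gene mostly gave the same picture. Of 62 tested synthetase probes, 48 rose and 3 fell in memory cells and 47 rose and 9 fell in naive cells, where 33.4% of all tested probes rose and 37.2% fell in memory cells and 38.9% and 30.4% in naive cells. No synthetase gene had probes called in opposite directions. One of 5 Aars probes was not well above background on the resting arrays and rose at least 2.63-fold in memory and at least 3.51-fold in naive cells. For this bound each resting array contributed the dimmest signal that counted as well above background, or the probe itself where that was brighter.

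One dim Dars probe departed from the others by cell type. It had -2.08, -2.10, -2.31 and -1.52 on memory stimulated and -2.47, -2.50, -2.69 and -3.17 on memory resting arrays. It had -1.12, -1.14, -1.31 and -1.27 on naive stimulated and -3.08, -2.66, -2.71 and -3.40 on naive resting arrays. It therefore rose by 0.70 in memory and 1.75 in naive cells, with an interaction of -1.05 (adjusted p = 0.0204), while the other 3 Dars probes had interactions of 0.17 to 0.29 that did not pass the test. The exon, intron or UTR position of the probes was not analysed here.

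**Figure D5:**
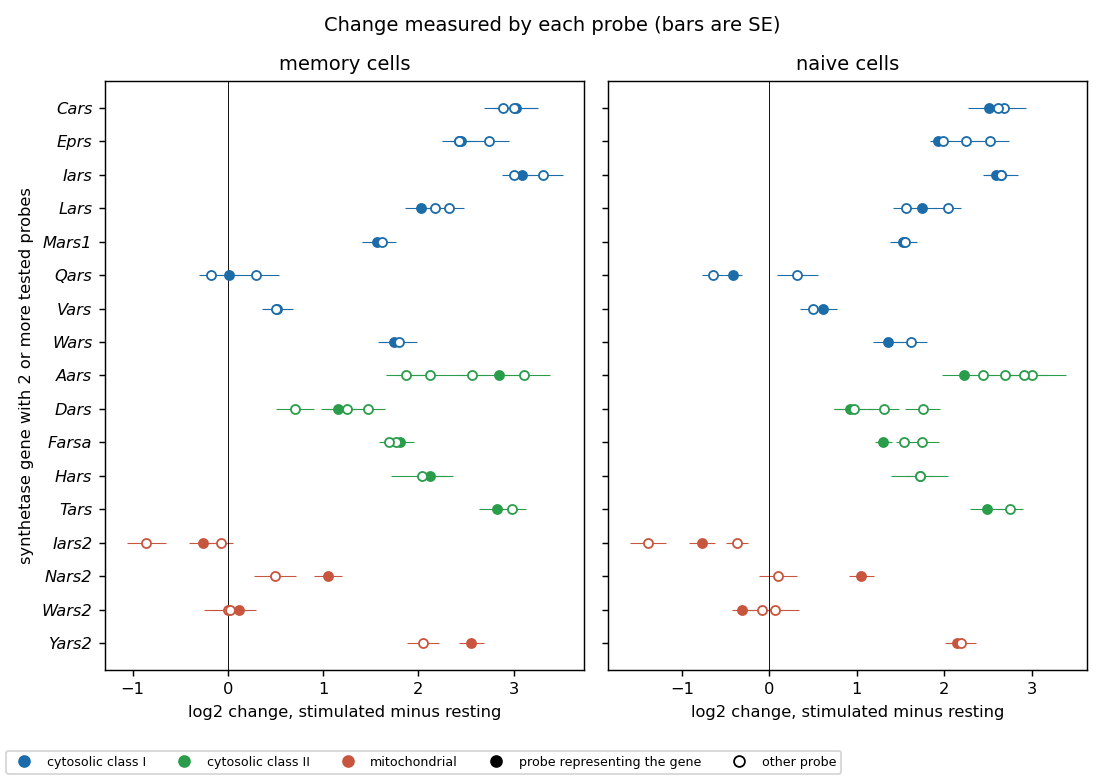
Log2 change on stimulation measured by each tested probe of the 17 synthetase genes with 2 or more, in memory cells (left) and naive cells (right), with SE bars; filled points represent the gene and open points are its other probes. Probes of a gene lie on the same side of 0 for the large changes, and their calls differ for Qars, Nars2, Wars2 and Iars2.

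Another 6 mitochondrial synthetases were on the array under names that the selection does not include. In memory cells 1 rose and 1 fell, and in naive cells none rose and 3 fell. The shares of all genes to set beside these counts, and beside those of the lists that follow, are 31.3% higher and 39.1% lower in memory cells and 38.2% higher and 30.9% lower in naive cells. Cars2 was 2.11-fold lower in memory and 2.91-fold lower in naive stimulated cells, while Vars2 (log2 -0.81) and Ears2 (-0.37) fell in naive cells. Tars2 rose in memory cells by 0.43 (adjusted p = 0.0425) by its representative probe, while its other probe did not pass the test (0.20, adjusted p = 0.466). A second, dim Ears2 probe was lower in both kinds of cell, at -0.60 in memory (adjusted p = 0.00713) and -0.49 in naive cells (0.0223).

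Partners of the synthetases were described from lists of related genes. All 3 scaffold proteins of the cytosolic complex rose in memory cells and 2 in naive cells. Eef1e1 had 6.06, 6.08, 6.03 and 5.98 on memory stimulated and 1.61, 1.76, 1.78 and 2.04 on memory resting arrays, with log2 changes of 4.24 in memory and 3.89 in naive cells. Aimp2 rose by 2.64 in memory and 2.42 in naive cells, and Aimp1 rose by 0.43 in memory cells and stood at 0.16 (adjusted p = 0.328) in naive cells. Of 4 mitochondrial charging partners, 2 rose and 1 fell in memory cells and 2 rose and 2 fell in naive cells. Gatc, a subunit of the mitochondrial amidotransferase that makes Gln-tRNA, rose by 2.11 in memory and 2.00 in naive cells, and Gatb, another subunit of it, fell by 0.59 and 0.68. Mtfmt, which formylates the initiator Met-tRNA of mitochondria, rose by 1.0 in memory and 0.87 in naive cells.

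Of 6 genes of selenocysteine charging and insertion, 4 were higher and 1 lower in memory cells. In naive cells 3 were higher and 1 lower. Sepsecs, which converts phosphoseryl-tRNA to selenocysteinyl-tRNA, rose by 1.93 in memory and 1.83 in naive cells, and Pstk, the kinase before it, fell by 1.20 and 1.45. Of 4 synthetase-like and editing proteins tested, Tarsl2, a threonyl-tRNA synthetase-like protein, and Dtd2 rose in both kinds of cell, by 1.0 and 0.43 in memory cells. Of 43 tRNA processing and modification genes tested, 34 rose and 4 fell in memory cells and 33 rose and 3 fell in naive cells, with median changes of 1.70 and 1.32. The tRNA methyltransferase subunit Trmt61a rose by 4.60 in memory and 3.79 in naive cells, and Mettl1, which methylates guanosine in tRNA, by 4.04 and 3.66. The splicing endonuclease subunit Tsen34 fell by 1.17 in memory and 1.56 in naive cells.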

How the data were processed

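RNA of 16 samples was labelled with Cy3, 1 sample per Agilent array (probes are 60-mers). The authors extracted the scans with Feature Extraction 9.5.3.1, per the file headers, and the deposited intensity (processed signal) is background-corrected within each array and not normalized between arrays. The authors also deposited a table of processed intensities, with no account of how it was made among the sources used. Its values are linear. Its quartiles were nearly the same on every array (lower 44, median 149, upper 1113 or 1114), as quantile scaling would give. The table served as an alternative only, and may not be a setting separate from quantile scaling.

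Groups came from the sample titles. Processed signal was put on the log2 scale and the array's 75th percentile subtracted; control spots and outlier spots (59 to 116 of 43379 per array) were left out and spots of a probe averaged. Probes well above background on at least 3 of 4 arrays of 1 group (27350) were fitted with limma 3.58.1 (lmFit, eBayes; R 4.3.3), 1 mean per group over all 16 arrays, two-sided, Benjamini-Hochberg over probes, threshold 0.05. A gene is represented by its probe of highest mean, giving 18404 genes. Symbols came from RefSeq tables by accession for 22951 probes, symbol for 6659 and synonym for 3109, and 8455 kept the file's name. Probe positions are mm7. The number of arrays limits the precision. The fit was tested on simulated data. Python 3.11.15 with numpy 2.4.6, pandas 2.3.3, scipy 1.17.1 and matplotlib 3.10.9 did the rest.

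The members and gene lists were chosen with earlier results of these data known. Every synthetase may be named; array values are given for the 3 largest changes past the threshold in each role, the smallest change in each role and response, and any interaction of at least 1 past the threshold (no gene). Array values of Eef1e1, Fars2 and the dim Dars probe were added after values were seen. One member is included in the counts and medians and is otherwise not reported here. Other scalings, background correction, filters, gene-level adjustment, the authors' table, a replicate block and leaving out each array were tried.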

Additional observations from a re-analysis of the deposited data

Results flagged for a closer look

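In 7 of 120 combinations of a synthetase gene and a group of 4 arrays, 1 array lay far from the other 3 (a Dixon test, which flags about 1 in 20 groups by chance). Naive stimulated replicate 1 accounted for 5 of them. Its level was 4.40 for Aars (others 5.23 to 5.28), 3.32 for Nars (4.07 to 4.18), 4.63 for Sars (5.10 to 5.20), -2.28 for Fars2 (-2.72 to -2.66) and 1.97 for Iars2 (1.28 to 1.36). Memory stimulated replicate 1 stood apart at 3.07 for Farsb (others 2.74 to 2.77) and -1.87 for Fars2 (-2.34 to -2.27).

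The memory response exceeded the naive response, by the interaction in the limma fit, for 4 genes: Eprs by 0.51 (adjusted p = 0.0169), Farsa by 0.50 (0.018), Mars2 by 0.55 (0.0233) and Aars2 by 0.57 (0.0344).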

How the results depend on the processing

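Under 9 other settings and with each array left out, no called result for a synthetase gene changed sign. Qars in memory cells, not called at 0.01, was higher with median scaling (0.32, adjusted p = 0.0205) and lower with 3 other settings given below. The count of cytosolic genes that rose in naive cells was 19 throughout. The median memory change was 1.51 with quantile scaling, 1.55 with the 75th percentile taken over probes above background on all arrays, 2.12 with median scaling and 1.45 with the authors' table. The median naive change was 1.25 with quantile scaling, 1.33 with that percentile and 1.17 with the authors' table. Under the first, second and last of those memory settings 1 cytosolic gene, Qars, fell in memory cells (-0.59, -0.25 and -0.61). Median scaling gave 7 genes called at rest, all lower (median -0.29), 10 called after stimulation, all higher (median 0.33), and 16 interactions (median 0.73). The authors' table gave 5 genes called at rest, 2 higher (Vars and Qars, adjusted p = 0.0118 and 0.0409) and 3 lower. Among all genes, the shares that rose and fell in memory cells, 31.3% and 39.1%, became 40.6% and 29.4% with median scaling, and 25.3% and 48.6% with the percentile over probes above background, which moved the all-gene memory median to -0.42. The cause of these shifts was not tested.

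Replicate numbers were not taken to pair the samples, because no label says that a number marks a round. Of 24 same-numbered pairs, 16 correlated over 0.1 (r from -0.21 to 0.58), and 12 of 16 arrays correlated best with their own number. A pairing is therefore not excluded. It cannot be told apart from the position on the slide, which equals the replicate number on every slide, and the same holds for the replicate block. With the replicate block, 5 genes were called at rest (1 higher, 4 lower), 9 after stimulation and 8 in the interaction.

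Gene calls lost were Vars in memory cells with quantile scaling, that percentile and the authors' table (adjusted p = 0.404, 0.197 and 0.614), Sars2 in naive cells with that percentile (0.0565), Wars2 in naive cells with the authors' table (0.273) and repaired normexp correction (0.309), the Eprs interaction with the authors' table (0.0537) and Sars2 after stimulation without the filter on dim probes (0.0611).

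Leaving out 1 array gave 27 to 29 genes called in the naive response (median 1.48 to 1.62) and 26 to 27 in the memory response (1.76 to 1.86). It gave 3 to 5 mitochondrial genes lower in naive cells, 2 to 6 genes called at rest (median -0.18 to -0.0044), 3 to 7 after stimulation (0.19 to 0.25) and 3 to 5 interactions (0.29 to 0.45). A slide block could not be fitted, since each slide holds 1 group. Plain normexp correction was computed but not carried into a fit. It was repaired by replacing the background of outlying spots on 4 arrays, a choice made after seeing the data. Dim probes near background and 4 arrays per group limit what small differences can be seen.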

Other observations

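The Lars2 probe, whose target is unsure, was among the most variable within groups, so the probes whose levels follow it over the 16 arrays were listed after its values were seen. They were LOC673334 (r = 0.991), J00623 (0.982), Syt10 (0.982), NAP114506-1 (0.978) and a Grn probe (0.969), a description with no test, in arrays that share their groups. On the naive resting arrays the Grn probe read 8.35, 6.86, 7.02 and 6.06, high and low on the same arrays as Lars2.

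Among the 43 tRNA processing genes tested, the memory change minus the naive change passed the interaction test above 0 for 5 and below 0 for 1, which is Adat1. Of all genes tested, 5.21% passed above 0 and 13.4% below 0. The enzyme subunit Qtrt1, which puts queuosine's precursor into tRNA, rose by 2.91 in memory and 1.99 in naive cells. Adat1, a tRNA adenosine deaminase, fell by 0.71 in memory cells and stood at 0.14 (adjusted p = 0.38) in naive cells.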
